A study of Mus musculus with 24 samples.

Results

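The hippocampus of untreated mice was compared between the ninth and the fifth hour of the light phase, which is the resting period of this nocturnal animal. The comparison used 16 of the 48 mice that were measured on arrays, 8 control animals killed in the fifth and 8 killed in the ninth hour. Their RNA was in the Cy3 channel of 16 of the 24 two-color microarrays. The groups were compared in a model of both channels of all 24 arrays, which share 1 estimate of the spread. All mice were Swiss-Webster males, 12 weeks of age and housed 1 per cage, and the whole hippocampus of each was analysed without pooling. The control animals drank water with 0.45% hydroxypropyl-β-cyclodextrin, a sugar ring that carries steroids in water, during the 12 h of darkness before the light phase. The 24 corticosterone-treated animals drank 100 µg/ml corticosterone in the same solution and were labelled with Cy5 on the same arrays. Another 8 control animals were killed when the light phase had just begun, in its first hour, and give the starting level. Each hour is a separate set of animals, and the study drew the mice of a group from several litters, which the labels do not assign to single mice.

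Nearly all mammalian cells hold a circadian clock. The transcription factors CLOCK and BMAL1 bind the E-box, a short DNA element, and switch on the genes of their own repressors (PER, CRY, CIART and the REV-ERB receptors encoded by *Nr1d1* and *Nr1d2*) as well as output factors such as DBP, which in turn binds the D-box. In the mouse forebrain these transcripts cycle over the day, while body temperature, sleep and blood corticosterone follow rhythms of their own and act on heat-sensitive, cold-sensitive, activity-dependent and glucocorticoid-responsive genes. Corticosterone of a mouse is low early in the light phase and climbs before darkness.

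The promoters of 3 clock genes described below are shown because E-boxes are the element that the clock itself uses. They are the 250 bases before the start of the transcript in the mouse genome build GRCm38.p6 (RefSeq), 5′ to 3′ on the strand of the gene, and capitals mark each E-box, CACGTG. The windows are chr3:95882229-95882478 on the minus strand for *Ciart*, chr11:69098699-69098948 on the plus strand for the first of the *Per1* starts, and chr7:45704997-45705246 on the plus strand for *Dbp*.
Ciart: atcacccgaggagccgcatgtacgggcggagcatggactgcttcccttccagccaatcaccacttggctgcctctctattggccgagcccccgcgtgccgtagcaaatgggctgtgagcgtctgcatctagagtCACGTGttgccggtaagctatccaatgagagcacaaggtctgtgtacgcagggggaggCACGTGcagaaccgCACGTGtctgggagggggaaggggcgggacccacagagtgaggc
Per1: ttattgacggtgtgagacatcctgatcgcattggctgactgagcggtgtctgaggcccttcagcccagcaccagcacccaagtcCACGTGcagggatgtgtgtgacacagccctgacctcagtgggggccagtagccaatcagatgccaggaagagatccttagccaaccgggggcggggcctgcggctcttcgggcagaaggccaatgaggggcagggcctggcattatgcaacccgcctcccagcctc
Dbp: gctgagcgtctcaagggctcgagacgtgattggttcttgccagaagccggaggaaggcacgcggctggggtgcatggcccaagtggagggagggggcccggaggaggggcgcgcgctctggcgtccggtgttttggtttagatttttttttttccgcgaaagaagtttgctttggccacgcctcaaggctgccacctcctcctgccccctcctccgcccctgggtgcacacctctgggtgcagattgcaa
*Ciart* holds 3 E-boxes, which begin 116, 58 and 44 bases before the start, and *Per1* holds 1, which begins 166 bases before it. *Dbp* has none in this window. The D-box was searched only as TTATGTAA or TTACGTAA, and these letters are in none of the 3. Other spellings were not searched, among them TTATGCAA, which the *Per1* window holds near its end. Windows with 50 further bases past the start were found for 15 of the 17 genes that differed between the hours. An E-box, read on either strand, is in those of 3 genes (*Ciart*, *Per1* and *Tspan4*) and in 7.15% of all 32851 windows. The units are unlike, here and for the elements below. A gene with several starts counted if any of its windows held the element, while each percentage is of single windows. The E-box of *Tspan4* is in its second window only, and the second *Per1* window has none. The D-box, in the letters searched, is in the windows of 0 of these genes and in 1.06% of all. The element of the REV-ERB and ROR receptors is in 0 and 0.435%, the cyclic AMP element (TGACGTCA) in 0 and 1.79%, the glucocorticoid element in 0 and 0.475%, and the heat shock element in 0 and 0.603%. The metal element (TGCACAC, with G allowed for its first A and T for its last) is in those of 4 genes (*Dbp*, *Hrk*, *Otub2* and *Rnf32*) and in 14% of all. Such matches are letters in a short window and not measured binding.

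The arrays were alike in brightness, and 1 of them stood apart in space. The median Cy3 spot had an intensity of 90.0 to 104 in the fifth hour and of 92.0 to 101.5 on 7 of the 8 arrays of the ninth, where replicate 1 was brighter, and 61.1 to 66.2% and 61.3 to 66.4% of all spots exceeded the background clearly. On the fifth-hour array of replicate 7, 2630 of 32033 probes with an intensity of at least 50 (8.21%) were more than 0.8 log2 units below the mean of the other 7 fifth-hour arrays, against 53 to 441 probes on each of the other 23 arrays. Of these probes, 98% lay in the first 54 of the 164 columns of spots. In columns 1 to 27 the median probe of this array was 0.63 log2 units lower in Cy3 and 0.66 lower in Cy5 than on the other arrays, and in the columns from 55 on it was 0.19 to 0.20 log2 units higher in Cy3. Of the 441 low probes on the first-hour array of replicate 6, 83.7% lay in the same columns. The significant probes and the counts of the main gene lists are therefore given from all arrays and also without the fifth-hour array of replicate 7, after normalizing the others anew, and other values are from all arrays. The number of arrays limits the precision of all values.

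**Figure D1:**
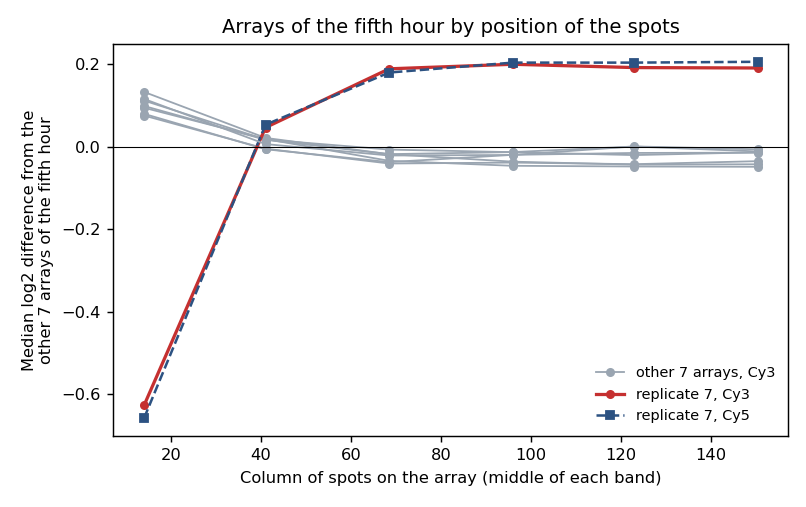
Median log2 difference of each fifth-hour array from the other 7 fifth-hour arrays (vertical axis) in 6 bands of spot columns (horizontal axis, middle of each band), over probes with an intensity of at least 50. Gray lines are the Cy3 channel of the 7 other arrays; on the array of replicate 7 the first band lies at −0.63 in Cy3 (red) and −0.66 in Cy5 (blue), and the columns from 55 on lie near 0.2.

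Few probes passed the test between the fifth and the ninth hour in control animals. In the separate channel test of limma, 19 of 56605 probes (0.0336%) differed at an adjusted p under 0.05, 7 of them higher (0.0124%) and 12 lower (0.0212%) in the ninth hour. They belong to 17 genes and 1 probe without a name. The differences ranged from 0.19 to 0.88 on the log2 scale with a median of 0.42. The clock genes *Dbp*, *Ciart* and *Per1* rose with *Hspa12b*, *Cables1* and *Tspan4*, while *Cldn5*, *Hrk*, *Slc44a5* and 8 other named genes fell. Without the fifth-hour array of replicate 7, 11 probes passed (0.0194%), 7 higher and 4 lower. They included 8 of the 19, namely both probes of *Dbp* and those of *Hspa12b*, *Cables1*, *Tspan4*, *Ciart*, *Cldn5* and *Hrk*, and 3 others, among them *Rbm3* (higher) and *Homer1* (lower). The remaining 11 kept their direction, with adjusted p values of 0.050 to 0.096 and log2 differences that are given below. From the Cy3 channels of the 16 arrays alone limma called 5 probes, 4 of them among the 19 (both of *Dbp*, *Cldn5* and *Adamts2*), while *Ciart*, *Hspa12b*, *Cables1* and *Slc44a5* each had an adjusted p of 0.071, *Hrk* 0.083, *Tspan4* 0.20 and *Per1* 0.25. From the Cy3 channels of the 24 arrays, 10 probes passed, 8 of them among the 19; *Hspa12b*, *Cables1* and *Hrk* passed and *Ciart*, *Per1*, *Tspan4* and *Slc44a5* did not (0.077, 0.077, 0.069 and 0.077). The hours were not balanced over the slides, and with the slide as a block 13 probes passed, 11 of them among the 19. The 8 that did not were those of *Per1* (0.082), *Rnf32* (0.068), *Tesc* (0.063), *Mllt1*, *Hexa*, *Sdccag8* and *Asb4* (0.053 each) and the unnamed probe (0.059). All 19 probes had the same direction within each of the 3 slides, but without slide 1, which held 4 of the 8 ninth-hour arrays, limma called 0 probes (2305 at an unadjusted p under 0.05). Leaving out single arrays of the fifth or ninth hour, each with its control and its treated animal, gave 6 to 23 probes. Before adjustment, 3588 probes (6.34%) had a p under 0.05, 1498 of which were higher (2.65%) and 2090 lower (3.69%), and this balance moved to 1742 higher and 1700 lower without the array of replicate 7.

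*Dbp*, the transcription factor that carries the clock signal to its output genes, had the smallest p of the risers. Its probe A_51_P180492 had a normalized intensity of 7514 (lowest), 9612 (median) and 12040 (highest) in the fifth hour and of 12230, 17040 and 18970 in the ninth. Each of the 8 ninth-hour animals was above each fifth-hour animal. The mean went from 9746 ± 1595 to 16490 ± 2263 (SD, n = 8 per group). The log2 difference of 0.76 (SE 0.09, 95% interval 0.57 to 0.95, adjusted p = 2.3e-06) corresponds to an increase by 69.7%. In the first hour the mean was 9102 ± 993 (SD, n = 8), within the range of the fifth hour (log2 difference of the fifth from the first hour 0.09, adjusted p = 0.87). The other *Dbp* probe, A_55_P2032079, ranged from 7277 to 10880 (median 8825) in the fifth and from 11340 to 15960 (median 13990) in the ninth hour, again without overlap (log2 difference 0.65, SE 0.08, adjusted p = 2.3e-06). Without the fifth-hour array of replicate 7, the log2 differences were 0.78 and 0.67 (adjusted p = 3e-06 and 2.7e-06). The rise on the first probe was 0.70, 0.62 and 0.82 log2 units within slides 1, 2 and 3.

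*Ciart* encodes a repressor that binds BMAL1. Its probe A_52_P63343 had an intensity of 84.3, 155.8 and 207.4 (lowest, median and highest) in the fifth hour and of 184.9, 278.5 and 336.7 in the ninth. Of the 8 ninth-hour animals, 7 were above the highest of the fifth hour. The log2 difference of 0.88 (SE 0.18, adjusted p = 0.012) was the widest among the probes that passed. The lowest fifth-hour animal was that of the dim array, whose spot lay in column 14, and without it the difference was 0.76 (adjusted p = 0.032). The dimmer probe A_66_P104483 went from a mean of 35.9 to 52.3 without passing the test (log2 difference 0.55, adjusted p = 0.13). Compared with the first hour, where the mean was 134 ± 37.9 (SD, n = 8), the brighter *Ciart* probe was higher in the ninth hour by 1.10 log2 units (adjusted p = 1e-04). Its column lies where the first-hour array of replicate 6 had most of its low probes, and that array was not left out. The dimmer probe had a first-hour mean of 43.1, above that of the fifth hour (early log2 difference −0.29, limma, adjusted p = 0.65).

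*Per1*, a repressor of the clock that is also induced by glucocorticoids and by neuronal activity, rose less. Its intensity was 2341, 2650 and 2773 (lowest, median and highest) in the fifth hour and 2757, 3175 and 3622 in the ninth, with 7 of 8 ninth-hour animals above the fifth-hour range. The log2 difference was 0.25 (SE 0.06, adjusted p = 0.045), and without the array of replicate 7 it was 0.27 with an adjusted p of 0.050 that no longer passed. The first-hour animals ranged from 2727 to 3038 (−0.14 from the first to the fifth hour, adjusted p = 0.59).

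No other clock gene passed the test. Of the 18 genes of the core loop on the array, 2 rose (*Ciart* and *Per1*; *Ciart* alone without the array of replicate 7) and 0 fell, and before adjustment 5 were higher (27.8%) and 3 lower (16.7%) with a p under 0.05, against 3.14% and 4.17% of 23853 genes. The counts were 6 and 3 without the array of replicate 7. Their median log2 difference was 0.05, against 0.00 over all genes, and went to 0 without slide 2. *Nr1d1*, the gene of the repressor REV-ERBα, ranged from 498.2 to 800.9 (median 658.4) in the fifth and from 642.3 to 1041 (median 816.6) in the ninth hour, which was not significant (log2 difference 0.38, SE 0.13, adjusted p = 0.51). From the first hour, with a mean of 415, it was already 0.63 higher in the fifth (adjusted p = 0.12) and 1.01 higher in the ninth hour (adjusted p = 5.2e-06). The activator gene *Bmal1* had means of 785, 942 and 779 in the first, the fifth and the ninth hour (late log2 difference −0.27, adjusted p = 0.24). Among the repressors, *Per2* had means of 1889, 1503 and 1699 (late log2 difference 0.17, adjusted p = 0.71) and *Nr1d2* of 2811, 2767 and 3165 (0.20, adjusted p = 0.34). *Cry1*, *Cry2* and the kinase genes *Csnk1d* and *Csnk1e* had unadjusted p values above 0.1 from all arrays. Without the array of replicate 7, *Cry2* had a log2 difference of 0.105 (limma, unadjusted p = 0.021, adjusted p = 0.74) and was among the 6 higher genes. Of the 9 output factors, 1 rose (*Dbp*). Before adjustment 2 were higher and 2 lower with a p under 0.05 (22.2% each), against 3.14% and 4.17% of all genes. These counts were also 2 and 2 without the array of replicate 7. *Nfil3*, whose product competes with DBP for the D-box, went from 985.5 ± 30.04 to 813 ± 74.6 (SD, n = 8 per group; log2 difference −0.28, adjusted p = 0.23), and the DBP relative *Tef* from 33690 to 30450 (−0.14, adjusted p = 0.53). Another relative, *Hlf*, had a log2 difference of 0.09 (adjusted p = 0.92).

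The other 3 risers are not clock components. *Hspa12b*, an atypical member of the HSP70 family found mainly in endothelial cells, had an intensity of 149.4, 193.7 and 212.8 (lowest, median and highest) in the fifth hour and of 228.7, 246.8 and 277.6 in the ninth. The groups did not overlap (log2 difference 0.42, SE 0.07, adjusted p = 5e-04), and the first-hour mean of 185.6 was close to that of the fifth hour, 187.0. The lowest fifth-hour animal was that of the dim array, with the spot in column 13; without it the difference was 0.38 (adjusted p = 0.00021). *Cables1*, whose product links cyclin-dependent kinases such as CDK5 to the tyrosine kinase ABL, went from 1622, 1963 and 2148 to 2166, 2769 and 3133, also without overlap (log2 difference 0.47, SE 0.09, adjusted p = 0.012; 0.49 and 0.011 without the array of replicate 7). It was the only one of 16 genes for CDK5, its partners and cell cycle regulators that passed the test. The first-hour mean of *Cables1* was 2299 ± 257 (SD, n = 8), between those of the fifth and the ninth hour. *Tspan4*, a tetraspanin of the cell membrane, went from 1380, 1686 and 1888 to 1777, 2189 and 2417 (log2 difference 0.38, SE 0.08, adjusted p = 0.039; 0.39 and 0.028 without the array of replicate 7). From a first-hour mean of 1460, its whole gain by the ninth hour was 0.55 log2 units (adjusted p = 1.6e-05).

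**Figure D2:**
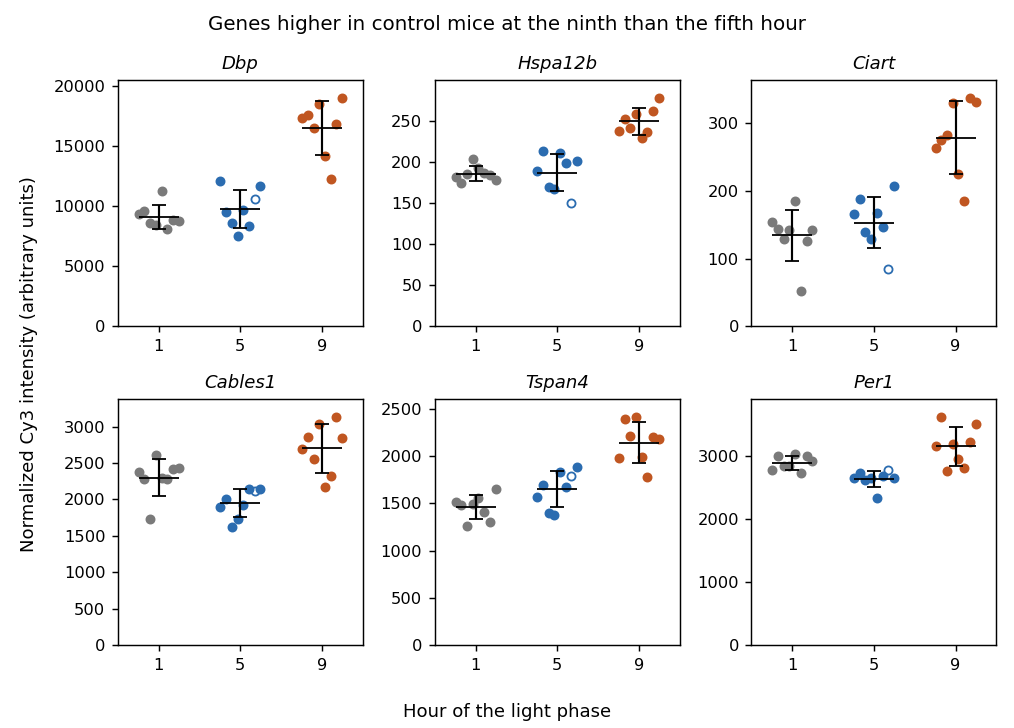
Normalized Cy3 intensity (vertical axis, arbitrary units, from 0) of the 6 genes that were higher in the ninth than in the fifth hour, by hour of the light phase; each point is 1 control animal, the open circle is the fifth-hour animal of replicate 7, and bars are mean ± SD (n = 8). *Dbp* (probe A_51_P180492), *Hspa12b* and *Cables1* show no overlap between the fifth and the ninth hour, and the first and the fifth hour of *Dbp* lie together.

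Among the fallers, *Cldn5*, the main claudin of the tight junctions between brain endothelial cells, had the smallest p. Its intensity was 3060, 3479 and 3719 (lowest, median and highest) in the fifth hour and 1902, 2536 and 2853 in the ninth. All 8 ninth-hour animals were below all 8 of the fifth hour. The log2 difference of −0.46 (SE 0.08, 95% interval −0.62 to −0.30, adjusted p = 0.0027) corresponds to a drop by 27.4%. Without the array of replicate 7 the log2 difference was −0.44 (adjusted p = 0.011). The first-hour mean was 3120 ± 332 (SD, n = 8). In whole tissue, fewer cells of a type and less RNA per cell cannot be told apart. The other 4 endothelial markers did not pass the test, with log2 differences of −0.27 for *Kdr*, the receptor of the vascular growth factor VEGF (adjusted p = 0.55), −0.03 for *Flt1*, −0.01 for *Pecam1* and 0.19 for the transporter gene *Slco1a4*. The summed intensity of the 5 endothelial markers, *Cldn5* included, ranged from 10060 to 12690 (median 10580) in the fifth and from 9218 to 11000 (median 9666) in the ninth hour. Their part in the drop of *Cldn5* was not tested.

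*Hrk* encodes a BH3-only protein, one of the members of the BCL2 family that promote cell death, and is expressed in neurons. It had an intensity of 5119, 6049 and 7951 (lowest, median and highest) in the fifth hour and of 4573, 4805 and 5040 in the ninth. The groups did not overlap, and the ninth-hour animals lay within a narrow range, with a mean of 4810 ± 163 against 6285 ± 865 (SD, n = 8 per group). The log2 difference was −0.38 (SE 0.07, adjusted p = 0.0059; −0.35 and 0.026 without the array of replicate 7). The first-hour mean of 5176 ± 471 (SD, n = 8) was below that of the fifth hour, and *Hrk* had its highest mean in the middle of the 3 time points. The dim probe A_51_P509137, with means of 139 and 111, had a log2 difference of −0.30 and did not pass (adjusted p = 0.61). Of the other 14 genes of the BCL2 family 0 passed, and 13 of them were detected well above background on at least 8 of the 16 arrays. The smallest p values among them were those of 2 other BH3-only genes, *Bid* (−0.16, adjusted p = 0.78) and *Bcl2l11* (−0.11, adjusted p = 0.82), which had −0.18 and −0.10 without the array of replicate 7. *Mcl1*, which protects cells from death, had 0.19 from all arrays and 0.0038 without that array.

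*Slc44a5*, of the family of choline transporter-like proteins, went from 3075, 3512 and 4494 to 2382, 2726 and 2924, without overlap (log2 difference −0.42, SE 0.08, adjusted p = 0.016). Without the array of replicate 7, which held the highest fifth-hour animal, its log2 difference was −0.37 and its adjusted p of 0.050 no longer passed. The 9 probes below did not pass without that array either, with an adjusted p of 0.056 to 0.096. Their log2 differences were then −0.17 to −0.77, against −0.19 to −0.84 from all arrays. In 7 of the 12 probes that fell, the animal of replicate 7 was the highest of the fifth hour. The share of all probes with this animal highest was not counted. All 12 lay in columns from 59 on, where that array was brighter than the others. The 6 bands of columns each held 5172 to 5543 of the 32033 probes, so most probes lie in columns from 55 on. Of the risers, *Dbp* (both probes), *Cables1* and *Tspan4* lay in columns 56 to 90, and *Hspa12b*, *Ciart* and *Per1* in columns 13 to 30. The part of the array in these differences was not tested.

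These 9 probes had log2 differences of −0.19 to −0.84. *Mllt1*, a chromatin reader that acts in transcription elongation, went from a mean of 5630 ± 386 to 4925 ± 104 (log2 difference −0.19, SE 0.04, adjusted p = 0.036). *Hexa*, the alpha subunit of the lysosomal enzyme hexosaminidase, went from 2777 ± 257 to 2387 ± 73.0 (−0.21, SE 0.05, adjusted p = 0.039), and *Tesc*, a calcium-binding protein, from 18650 ± 953 to 15810 ± 743 (−0.24, SE 0.05, adjusted p = 0.045). The second *Tesc* probe had a difference of −0.18 (adjusted p = 0.35). Also lower were *Otub2*, a deubiquitinase (4321 ± 382 to 3636 ± 185, −0.25, adjusted p = 0.045), *Asb4*, a substrate adaptor of a ubiquitin ligase (85.3 ± 19.4 to 47.8 ± 11.2, −0.84, adjusted p = 0.045), and *Rnf32*, a RING finger protein (mean 1552 to 1268, −0.29, adjusted p = 0.039). *Rnf32* was without overlap, from 1387 to 1724 in the fifth and from 1119 to 1364 in the ninth hour, and so was *Sdccag8*, of the base of the cilium, from 299.4 to 386.9 and from 244.6 to 293.9 (−0.30, adjusted p = 0.045). The 2 other *Sdccag8* probes had −0.11 (adjusted p = 0.87) and 0.05 (adjusted p = 0.97). *Adamts2*, a protease that trims procollagen, went from 548 ± 71.5 to 371 ± 44.7 on probe A_52_P510592 (−0.56, adjusted p = 0.039); this probe has its name from the annotation of the study, and another *Adamts2* probe had a difference of 0.26 (adjusted p = 0.79). The second *Otub2* probe, close to background, had 0.12. The unnamed probe A_52_P633719 (intensity 37.2 ± 4.15 to 24.1 ± 4.76, −0.64, adjusted p = 0.045) was well above background on 4 of 8 arrays of the fifth and on 0 of 8 of the ninth hour.

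**Figure D3:**
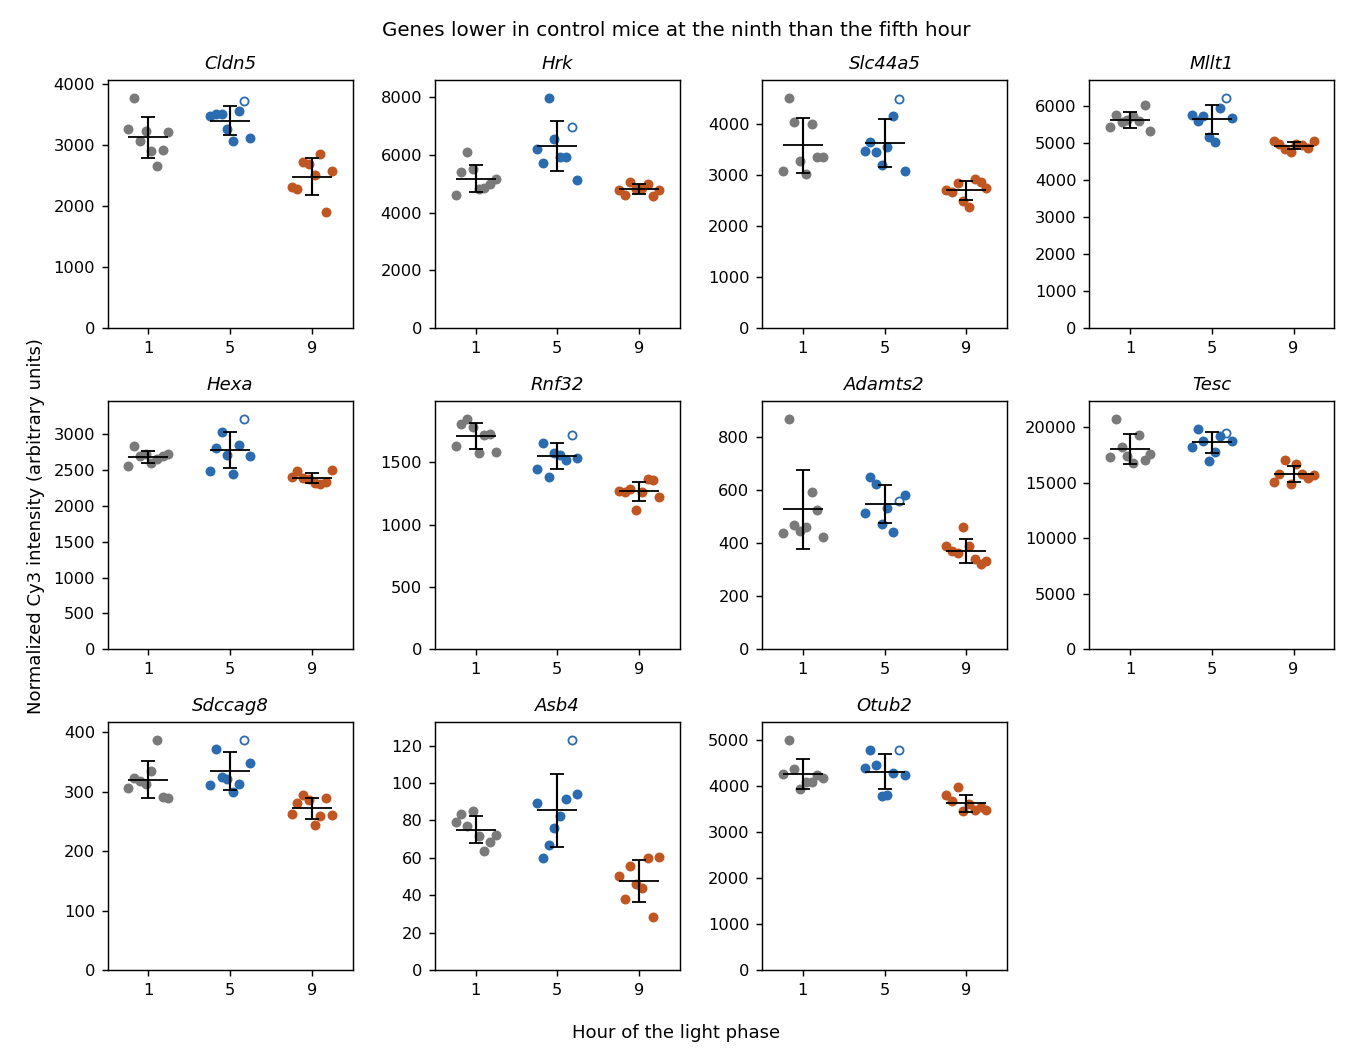
Normalized Cy3 intensity (vertical axes, arbitrary units, from 0) of the 11 named genes that were lower in the ninth than in the fifth hour, by hour of the light phase; each point is 1 control animal, the open circle is the fifth-hour animal of replicate 7, and bars are mean ± SD (n = 8). The 8 ninth-hour animals of *Cldn5*, *Hrk*, *Slc44a5*, *Rnf32* and *Sdccag8* all lie below the fifth-hour animals, and the open circle is the highest fifth-hour point in 7 panels.

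Over all probes, 36 (0.0636%) had groups that did not overlap, 10 with the ninth hour higher (0.0177%) and 26 with it lower (0.0459%), and 9 of the 19 significant probes were among them. The named probes next in order of p did not pass with all arrays. Those of *Cdk2ap2*, an inhibitor of CDK2 (2334 to 2893 in the fifth, 1946 to 2291 in the ninth hour, log2 difference −0.26, adjusted p = 0.055), and *Txlng* (917.7 to 1078 and 783.3 to 899.8, −0.22, adjusted p = 0.067) did not overlap either. *Ccpg1*, *Cygb*, *Tor4a*, *H2aw*, *Tubd1* and *Anapc16* had log2 differences of −0.15 to −0.44 (adjusted p = 0.067 to 0.13). A *Homer1* probe, A_52_P37991, went from 502.2, 866.5 and 1083 to 487.5, 531.3 and 687.9 (−0.57, adjusted p = 0.13) and passed without the array of replicate 7 (−0.67, adjusted p = 0.011). *Homer1* encodes a scaffold of the postsynapse with long and short transcripts, and its 3 other probes had differences of −0.04 to −0.13.

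Genes of protein folding had negative medians, and none of them passed alone. Of 16 genes for chaperones of the endoplasmic reticulum and the unfolded protein response, 0 passed (limma), 9 were lower (56.2%) and 0 higher at an unadjusted p under 0.05, against 4.17% and 3.14% of all genes. The median log2 difference was −0.15, 13 of the 16 were below 0, and the median stayed between −0.19 and −0.13 under the 36 settings tried. Without the array of replicate 7, 7 of 16 (43.8%) were lower, against 3.24% of all genes. The chaperone *Hsp90b1* (GRP94) had an intensity of 17430, 19700 and 21400 in the fifth and of 15620, 16830 and 19360 in the ninth hour (log2 difference −0.19, adjusted p = 0.31), and 6 of 8 ninth-hour animals were below the fifth-hour range. The calcium-binding chaperone *Calr* went from 7270, 8860 and 10250 to 6334, 7268 and 8123 (−0.27, adjusted p = 0.34), and the disulfide isomerase *Pdia6* from 12690, 14160 and 17650 to 11520, 12540 and 12980 (−0.24, adjusted p = 0.50). *Hspa5* (BiP), the central chaperone of this compartment, was affected by the dim array, with −0.03 from all arrays and −0.23 without replicate 7 (adjusted p = 0.73). The transcription factor *Atf4* had 0.02. Compared with the first hour, *Hsp90b1* (−0.24, adjusted p = 0.010) and *Pdia6* (−0.35, adjusted p = 0.015) were significantly lower in the ninth.

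Of 17 cytosolic and mitochondrial heat shock genes, 0 passed, and 4 were lower (23.5%, against 4.17% of all genes) and 0 higher at an unadjusted p under 0.05, with a median of −0.11. The lower ones were 5 (29.4%, against 3.24% of all genes) without the array of replicate 7. Under the 36 settings tried, the median of this list ranged from −0.137 (within slide 3) to −0.046 (within slide 1). The small heat shock gene *Hspb1* went from 2409, 2879 and 3285 to 2049, 2325 and 2863 (−0.28, adjusted p = 0.55), and *Bag3*, *Hsph1* and the regulator *Hsf1* had −0.28, −0.17 and −0.12. *Hspa8*, *Hsp90aa1* and *Hsp90ab1*, the abundant members, had −0.11, 0.06 and 0.08 (adjusted p above 0.8), and −0.10, −0.018 and 0.027 without the array of replicate 7. By their brightest probes, both genes of the cold-induced RNA-binding proteins pointed the other way. *Rbm3* had an intensity of 5787, 6612 and 8472 in the fifth and of 7714, 9182 and 10030 in the ninth hour (0.43, SE 0.10, adjusted p = 0.11; 0.48 and 0.037 without the array of replicate 7), and its other 2 brighter probes had 0.45 and 0.41. The dim *Rbm3* probe A_55_P2766239, for another transcript, had 0.07. *Cirbp* went from 6204, 6570 and 7810 to 7426, 8422 and 8720 (0.30, adjusted p = 0.34) on its brightest probe. Of its dimmer probes, A_55_P2506450 had 0.36 and A_55_P1985001 −0.19 (limma, adjusted p = 0.47 and 0.87). Relative to the first hour, *Rbm3* (0.69, adjusted p = 4.8e-05) and *Cirbp* (0.63, adjusted p = 1.5e-05) were significantly higher in the ninth.

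Genes that respond to glucocorticoids had a positive median. Of 28 such genes and receptors, 1 rose (*Per1*; 0 without the array of replicate 7), before adjustment 8 were higher (28.6%) and 2 lower (7.14%) with a p under 0.05, against 3.14% and 4.17% of all genes, and the median was 0.12. The counts were 9 and 2 without the array of replicate 7. The 8 from all arrays were *Per1*, *Mt1*, *Mt2*, *Zbtb16*, *Nfkbia*, *Klf9*, *Klf15* and *Hif3a*. The transcription factor *Zbtb16* went from a mean of 6604 ± 664 to 7680 ± 746 (0.22, adjusted p = 0.57), and *Klf9* from 6735 ± 272 to 7357 ± 449 (0.13, adjusted p = 0.62). The cochaperone of the receptor, *Fkbp5*, had 0.14 (adjusted p = 0.85), *Tsc22d3* (GILZ) 0.21 (adjusted p = 0.82) and *Sgk1* 0.12 (adjusted p = 0.85). The glucocorticoid receptor gene *Nr3c1* had −0.19 (adjusted p = 0.53). The metallothioneins *Mt1* and *Mt2*, which bind zinc, had 0.22 (adjusted p = 0.34) and 0.38 (adjusted p = 0.13), and *Mt3* had 0.01. *Mt2* went from 39910, 52430 and 61100 to 59010, 69650 and 75410, with 7 of 8 ninth-hour animals above the fifth-hour range. Of 15 genes of fuel use and growth brakes, 0 passed; *Txnip*, an inhibitor of thioredoxin and of glucose uptake, had 0.32 (adjusted p = 0.34).

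Of 23 activity-dependent early genes, each taken by its brightest probe, 0 passed (limma), and the median was −0.04. At an unadjusted p under 0.05, 1 was lower (4.35%), close to the 4.17% of all genes. Without the array of replicate 7, 3 were lower (13%, against 3.24% of all genes), namely *Fos*, *Npas4* (−0.36, adjusted p = 0.75) and *Nr4a2* (−0.20, adjusted p = 0.74). *Homer1* is on this list by a brighter probe than A_52_P37991, which passed without that array as given above. *Arc* had means of 6384, 4221 and 3876 in the first, the fifth and the ninth hour (late log2 difference −0.09, adjusted p = 0.95), and *Fos* of 422, 279 and 208 (−0.28, adjusted p = 0.87). The ninth hour differed from the first in both, by −0.64 for *Arc* (adjusted p = 0.029) and by −0.96 for *Fos* (adjusted p = 0.048). Without the array of replicate 7 the late difference of *Fos* was −0.51 (adjusted p = 0.74). Of 20 genes of glutamate receptors and the postsynapse 0 passed with all arrays, of 15 neuropeptide and granin genes 0, of 21 genes of cholesterol synthesis and uptake 0, of 85 cytosolic ribosomal protein genes 0 and of 92 genes of the respiratory chain and ATP synthase 0, with medians of 0.00, 0.02, 0.07, −0.01 and 0.00.

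**Figure D4:**
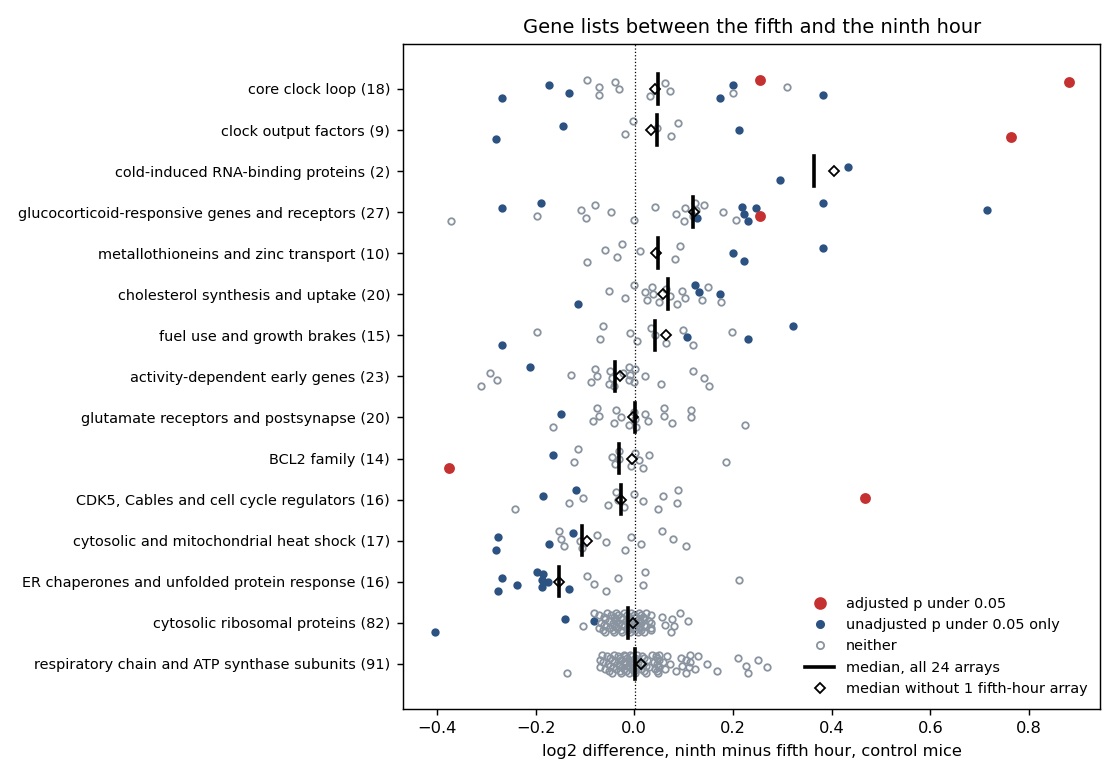
Log2 difference of the ninth minus the fifth hour in control animals (horizontal axis) for the genes of each list (rows, with the number detected well above background on at least 8 of the 16 arrays), each gene by its brightest probe. Red points passed at an adjusted p under 0.05, blue points had only an unadjusted p under 0.05, vertical bars are medians from all arrays and diamonds medians without the fifth-hour array of replicate 7; the endoplasmic reticulum list lies to the left of 0 (median −0.15) and the 2 cold-induced genes to its right (0.36).

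The cell composition of the dissected tissue was followed by markers of 13 cell types or regions. All lists had detected markers, and 0 genes of the other 12 lists passed the test. The summed intensity of 4 markers of CA1 pyramidal neurons was 30320 to 38810 in the fifth and 28160 to 39720 in the ninth hour, that of 4 dentate granule markers 10730 to 13070 and 9788 to 13000, and that of 7 oligodendrocyte markers 56520 to 80260 and 59250 to 81030. The sum of 8 choroid plexus markers, 6 of them detected, was 4085 to 8940 and 5769 to 8233, and that of 4 blood markers 37800 to 77260 and 41320 to 74480. The 4 thalamus markers had a median log2 difference of 0.15, which was 0.017 to 0.256 under the 36 settings tried. Their sum was 1638 to 2111 in the fifth and 1748 to 2374 in the ninth hour. The groups overlapped in each of these sums.

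The early interval was tested in the same model. From the first to the fifth hour, 3 probes changed in control animals (0.0053%): *Mt2* rose by 0.61 log2 units (adjusted p = 0.00077), *Slc15a3*, a transporter of peptides and histidine, by 0.54 (adjusted p = 0.019), and the dim *Rbm3* probe A_55_P2766239 fell by 0.85 (adjusted p = 0.019). *Slc15a3* had a late difference of −0.26 (adjusted p = 0.66). Without the array of replicate 7, 1 probe passed. Across the whole span from the first to the ninth hour, 304 probes (0.537%) differed, and 499 (0.882%) without that array. A direct test of the late against the early step in the same model passed for 1 probe (0.00177%), that of *Hrk* (late minus early −0.65, SE 0.12, adjusted p = 0.030), with an early difference of 0.27 (adjusted p = 0.21) and a late one of −0.38. This call was lost without any one of the slides and from the Cy3 channels of the 24 arrays alone. Without the array of replicate 7 its adjusted p was 0.056, and *Zfp189*, a zinc finger gene, passed instead (0.89, adjusted p = 0.045; 0.77 and 0.20 with all arrays). For *Dbp*, the late step was larger than the early one by 0.67 and 0.67 log2 units on its 2 probes, which did not pass over all probes (adjusted p = 0.33 and 0.20), and for *Cables1* by 0.70 (adjusted p = 0.20).

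The corticosterone-treated animals were other mice killed at the same hours, but their RNA was measured on the same spots as that of control animals (intraspot correlation 0.279), and the dim array was dim in both channels. The comparisons are therefore not independent, and they are given side by side from all arrays. In them 377 probes (0.666%) differed between the fifth and the ninth hour, among them 9 of the 19 probes, those of *Dbp* (both), *Ciart*, *Tspan4*, *Mllt1*, *Rnf32*, *Adamts2*, *Tesc* and *Otub2*, of which the last 5 did not pass in control animals without the array of replicate 7. *Dbp* rose by 0.76 in control and by 0.71 in treated animals, *Ciart* by 0.88 and 0.71, and *Tspan4* by 0.38 and 0.35, each with an adjusted p under 0.05 in both treatments. The difference between treatments did not pass for these genes (adjusted p = 1.0), and for *Dbp* it was −0.05 (SE 0.11). Of the probes that did not pass in treated animals, *Hspa12b* had 0.42 in control and 0.19 in treated animals (adjusted p of the treated = 0.25), and *Hrk* −0.38 and −0.16 (0.36). *Per1* had 0.25 in control and 0.02 in treated animals, and the difference of −0.24 (SE 0.07) did not pass (adjusted p = 0.19). *Cldn5* had −0.46 and −0.11, with a difference of 0.35 (SE 0.10, adjusted p = 0.16).

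Among the 19 probes, that of *Cables1* was the one where the late change differed significantly between treatments. In treated animals its mean was 2148 ± 283 in the fifth and 1909 ± 119 in the ninth hour (SD, n = 8 per group; log2 difference −0.16), against a rise of 0.47 in control animals. The difference of −0.63 (SE 0.11, adjusted p = 0.001) was −0.61 without the array of replicate 7 (adjusted p = 0.0042). Over all probes, 47 (0.083%) passed this test, 6 with a higher (0.0106%) and 41 with a lower change (0.0724%) in treated animals, and 47 also without that array. The count was 0 without slide 1, 0 within slides 2 and 3, and 9 without slide 3 (limma, with 2347 probes at an unadjusted p under 0.05 without slide 1, and 2711 and 1587 within slides 2 and 3). It was 30 to 72 without single arrays of the fifth or the ninth hour, each of which held a control and a treated animal. The 47 probes include both main metallothioneins. *Mt2* went from 52750 ± 6927 to 68460 ± 5822 in control and from 74520 ± 10480 to 54760 ± 5512 in treated animals (difference −0.82, SE 0.11, adjusted p = 4.7e-05), and *Mt1* from 53200 ± 5399 to 61870 ± 3264 and from 98070 to 83180 (−0.46, SE 0.08, adjusted p = 0.0014). At the ninth hour the control mean of *Mt2* was thus above that of treated animals, while in the fifth hour it was below. Because the dyes were not exchanged, levels of the treatments on one array also hold the difference between dyes, which cancels in the change between hours.

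**Figure D5:**
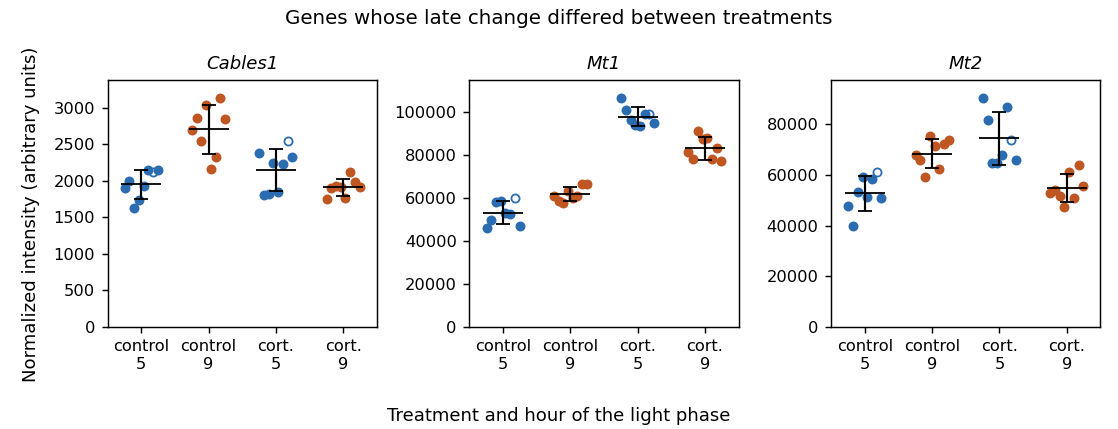
Normalized intensity (vertical axes, arbitrary units, from 0) of *Cables1*, *Mt1* and *Mt2* in control (Cy3) and corticosterone-treated (cort., Cy5) animals in the fifth and ninth hour; each point is 1 animal, open circles are the array of replicate 7 of the fifth hour, and bars are mean ± SD (n = 8). *Cables1* and *Mt2* had higher means in the ninth hour in control and lower ones in treated animals.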

How the data were processed

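Hippocampal RNA of control (Cy3) and corticosterone-treated (Cy5) mice was hybridized by the authors to 24 Agilent arrays. The deposited scanner files hold the median intensity of each spot and its local background in both channels, not yet normalized, which the authors extracted with the Agilent Feature Extraction software; the log2 ratios deposited by the authors were not used. Hour and treatment came from the labels and the slide from the scanner files. In R 4.3.3 (jsonlite 2.0.0, with data.table at version 1.17.8), limma 3.58.1 with statmod 1.5.0 applied normexp correction, loess within and quantile normalization between arrays, as the study's methods state, where p values rest on the offset 50, and log2 differences, standard errors and printed intensities on 0. Control spots (3671) were left out and copies of a probe averaged. Outlier spots were missing; for 77 probes 1 array value was filled with the mean of the other arrays of that hour, and 0 of these probes passed. The separate channel test fitted 6 groups (intraspot correlation 0.279, prior degrees of freedom 4.89), with p values adjusted by Benjamini and Hochberg over 56605 probes. Probes compare groups, not genes with one another, and 24572 probes had a mean intensity under 50.

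Names came from RefSeq transcripts (34566 probes) and from the annotation of the study (145 further probes). The genes to name were all significant probes, in each list the members that passed and the 3 detected ones with the smallest p, the 10 next named probes, and 12 genes known from earlier results. For lists in which few or none passed, not all of these are printed, and other values were chosen after they were seen. Some results are not reported here. Members and lists were chosen with earlier results of these data known. Alternatives were other offsets, background corrections, normalizations and signals, filters on dim probes, the Cy3 channel alone, a variance trend, slides as a block, within or left out, single arrays left out, and other probes of a gene. The test was tried on simulated data. Python 3.11.15 and matplotlib 3.10.9 drew the figures. Leaving out the fifth-hour array of replicate 7, with new normalization, was chosen after seeing the data.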

Additional observations from a re-analysis of the deposited data

Results flagged for a closer look

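Among the named probes, 14 of 214 groups of 8 animals held an animal set apart by Dixon's criterion, the gap to its nearest neighbour divided by the range of its group; chance alone gives about 1 in 20. In 9 of them the animal was the fifth-hour one of replicate 7, lowest of its group, with spots in columns 5 to 39: *Ndufs3* (0.874), *Gria2* (0.822), *P2ry12* (0.75), *Fibcd1* (0.71), *Ndufa11* (0.68), *Enpp2* (0.64), *Synpo2* (0.632), *Fos* (0.578) and *Slc30a10* (0.546). The *Ndufs3* intensity, for a subunit of respiratory complex I, was 6996 in this animal and 17730 or more in the others, and that of *Gria2*, an AMPA receptor subunit, 9027 against 22970 or more. The same animal was the highest for *Csf1r* (0.537; 9304 against 7632 and less). The other 4 were the lowest fifth-hour animal for *Per1* (0.654; 2341 against 2615) and *Grik4* (0.631; 4957 against 5860), the highest fifth-hour animal for *Rpl37* (0.611; 172.5 against 98.2) and the highest ninth-hour animal for *Nfil3* (0.568; 976.2 against 838.1).

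The change from the fifth to the ninth hour differed between treatments by the test of limma for *Cables1* (−0.629 log2 units, treated minus control), *Mt2* (−0.822) and *Mt1* (−0.461), as given above.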

How the results depend on the processing

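The 19 probes of the main comparison kept their direction under all alternatives tried; without slide 1 their adjusted p was 0.16 or more. The count of significant probes between the fifth and the ninth hour was 10 with an offset of 0 for p values, 41 from the processed signals of the scanner software, 5 from the Cy3 channels of 16 arrays alone, 10 from those of 24 arrays alone, 10 with a variance trend and 11 without the fifth-hour array of replicate 7 (an alternative chosen after seeing the data). By limma it was 2, 0 and 0 within slides 1, 2 and 3 (4006, 2700 and 1508 at an unadjusted p under 0.05) and 0, 3 and 2 without slides 1, 2 and 3 (2305, 4530 and 3316). It was 6 to 23 when single arrays of the fifth or the ninth hour were left out, each with its control and its treated animal. The same arrays are meant below, and first-hour arrays were not left out. Between the first and the fifth hour, where 3 probes passed, the count was 1 with an offset of 0, 9 from processed signals, 1 without the array of replicate 7, 0 within each of the slides (3798, 4517 and 2724 at an unadjusted p under 0.05), 1 without slide 1 and 0 without slide 3 (4092), and 1 to 4 without single arrays. The late against the early step gave 2 with an offset of 0, 7 from processed signals, 0 from the Cy3 channels of 24 arrays (2821 unadjusted), 0 within each slide (2989, 3458 and 1848), 0 without each slide (2761, 3361 and 3186) and 0 to 2 without single arrays. The difference between treatments, 47 in the main setting, gave 0 without slide 1 (2347 unadjusted), 0 within slides 2 and 3 (2711 and 1587), 9 without slide 3 and 30 to 72 without single arrays. Direction turned within single slides for genes that had not passed: *Bag3* (0.06881) and *Arc* (0.08989) within slide 1, *Gpr17* (0.07832) and *Slc1a3* (0.04564) within slide 2, and *Pdyn* (0.05109) within slide 3. With the mean of all probes of a gene, the median of the cold-induced list was 0.247 and that of the CDK5 list 0.019. The cause was not tested. Fewer animals enter each slide. Dim probes near background are the least certain. No paired analysis was possible because the labels carry no replicate numbers; the numbers used here follow the order of the samples and only name them.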
